A study of Mus musculus with 8 samples.

Results

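The NK homeobox genes of the ventral forebrain were followed in the medial ganglionic eminence (MGE) of mouse embryos that lost Nkx2-1, their member that marks this tissue. The members were Nkx2-1, Nkx2-2, Nkx2-3, Nkx2-4, Nkx2-9, Nkx6-1 and Nkx6-2, chosen by name, and their probes were found through the transcript accession that the array design gives each probe. Of these 7 genes, 6 had a matched probe, 1 probe each, among 17178 genes matched on the array. Nkx2-9 had no match and was not analysed here. All 6 probes passed the filter on dim signal. One member, Nkx2-1, fell in the mutant, to 1.24% of its WT level as processed here. None of the other 5 passed the threshold in the fit without slide, although Nkx2-3 was higher and Nkx2-2 lower on every mutant array. Such separations were shared by 2.29% (higher) and 4.11% (lower) of all tested probes. With slide as a block, Nkx2-3 passed as higher (limma, adjusted p = 0.00618), as did 0.668% of all tested probes in that fit. Nkx2-3 passed under 2 of 17 alternatives. With replicate number as a block it did not pass (limma, adjusted p = 0.43).

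RNA from MGE dissected at embryonic day 13.5 (E13.5) on a C57BL/6 background was hybridised to 1-colour Agilent whole mouse genome arrays, 4 for WT and 4 for the Nkx2-1cKO. Both groups carried a floxed Nkx2-1 allele, given in the labels as Nkx2-1flox/+. The Cre separates the groups (Olig2tva-cre+ in the mutant, Olig2tva-cre- in WT). It is driven by Olig2 regulatory sequence, so that recombination depends on past or present Olig2 activity in a cell. Effects of the Cre allele and of the loss of Nkx2-1 cannot be told apart in these groups. The labels give a heterozygous allele for the mutant arrays. The paper's methods name an Nkx2-1f/f strain and an AI14 reporter, without a genotype for these samples. On the mutant arrays the Nkx2-1 signal was 1.24% of WT as processed here, and which genotype the samples had was not tested. The labels do not say whether arrays came from separate embryos or pools, so the p-values measure the spread between these samples, which may be technical. In dissected tissue, fewer cells that express a gene and less of its RNA per cell cannot be told apart.

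NK genes encode transcription factors that bind DNA through a homeodomain, and many of them carry a short motif that recruits Groucho/TLE co-repressors. In the ventral neural tube, Sonic hedgehog (SHH) turns on Nkx2-2, Nkx2-9, Nkx6-1 and Nkx6-2 in progenitors, where they repress genes of more dorsal domains. In the telencephalon, Nkx2-1 is the member that gives MGE progenitors their identity, and outside it the gene is known for its roles in hypothalamus, thyroid and lung.

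The stretches before the starts of Nkx2-1 and Nkx2-3 are printed because these genes had the largest fall and the largest rise in value among the members, and a short part of the Nkx2-2 stretch is printed because it held the single motif found among the members. They are RefSeq sequences on GRCm38.p6, written 5′ to 3′ along the gene's strand, at chr12:56536909-56537158 (minus strand) for Nkx2-1, at chr19:43612075-43612324 (plus strand) for Nkx2-3 and at chr2:147186583-147186609 (minus strand) for Nkx2-2. Capitals mark a match to the NK2-class core.
Nkx2-1: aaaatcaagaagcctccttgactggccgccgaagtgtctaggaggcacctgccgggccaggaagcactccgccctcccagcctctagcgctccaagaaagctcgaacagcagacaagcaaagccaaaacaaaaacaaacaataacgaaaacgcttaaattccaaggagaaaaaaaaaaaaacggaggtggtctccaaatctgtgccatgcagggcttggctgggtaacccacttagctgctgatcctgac
Nkx2-3: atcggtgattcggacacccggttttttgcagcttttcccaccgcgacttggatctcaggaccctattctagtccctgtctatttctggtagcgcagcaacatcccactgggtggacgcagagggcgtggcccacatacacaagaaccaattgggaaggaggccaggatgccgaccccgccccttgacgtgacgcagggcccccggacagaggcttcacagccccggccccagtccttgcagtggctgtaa
Nkx2-2: tgtcttcatcCACTTGActcccaagac
The 250 bases before the start of each of the 7 genes were searched on both strands for 3 letter patterns that do not overlap one another. The first was TNAAGTG, read as CACTTNA on the other strand, for the NK2 class. The second was TAATTA for homeodomains in general, and the third was GACCACCCA for GLI factors, which carry the SHH signal. Nkx2-2 held the NK2-class pattern, 197 to 191 bases before its start, and the other 6 genes held none of the 3. Over all 32851 promoters of this length, 10.1% held the NK2-class pattern, 4.84% the homeodomain pattern and 0.225% the GLI pattern. A match is a description of letters and not a binding site.

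Signal is given as the log2 of the processed intensity relative to the 75th percentile of its array, so 0 is the brightness that 3 in 4 spots fall below. Levels of different probes cannot be set against each other, because probes differ in how strongly they bind. The 75th percentile lay between 2026 and 2573 intensity units on the 8 arrays, no spot was saturated, and between 29283 and 32733 of 41174 probes were well above background. WT replicate 1 stood apart, with a median over all probes of -3.19 against -3.67 to -3.46 on the other 7 arrays. The arrays lay on 2 slides, each with 2 WT and 2 Nkx2-1cKO arrays. Slide 1 held WT replicates 1 and 3 and Nkx2-1cKO replicates 2 and 4.

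Nkx2-1 fell on every mutant array. Its log2 signal was 1.87, 1.95, 1.82 and 1.85 on WT replicates 1 to 4, and -4.26, -4.58, -4.66 and -4.35 on Nkx2-1cKO replicates 1 to 4. The WT arrays averaged 1.87 ± 0.06 and the mutant arrays -4.46 ± 0.19 (SD, n = 4 each). The difference of -6.34 (standard error 0.11, 95% interval -6.58 to -6.09) passed the threshold over all probes (limma, adjusted p = 4.67e-09), and WT was 80.8-fold higher. Among the members, 1 of 6 passed as lower, Nkx2-1 itself, where 0.614% of all 31283 tested probes did. None passed as higher (0 of 6), where 0.422% of all tested probes did. Nkx2-1 is the gene that the design targets, so its call says nothing about the family. At an unadjusted p under 0.05 (limma), 2 members were lower (Nkx2-1 and Nkx2-2), against 5.29% of all tested probes. At the same cut 1 member was higher (Nkx2-3), against 3.31%. Within slide 1 the mutant differed from WT by -6.31, and within slide 2 by -6.36.

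This probe was printed in 10 copies on each array, which gives its technical spread. The mean intensity of the copies lay between 8811 and 9439 on the WT arrays and between 80.1 and 123.8 on the mutant arrays. All copies kept were well above background, also in the mutant, so the remaining signal was above the array's background. Its level depended on the background correction, since the log2 difference was -6.34 as reported and -5.01 after normexp. How much of the remaining signal came from Nkx2-1 RNA was not tested. On Nkx2-1cKO replicate 2, 8 of the 10 copies were left after outlier spots were removed. The SD between copies on an array was 0.04 to 0.11 on the log2 scale. Which stretch of Nkx2-1 the floxed allele removes, and where the probe lies relative to it, are not given in the sources used here. A probe outside the removed stretch would be no check of recombination.

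**Figure D1:**
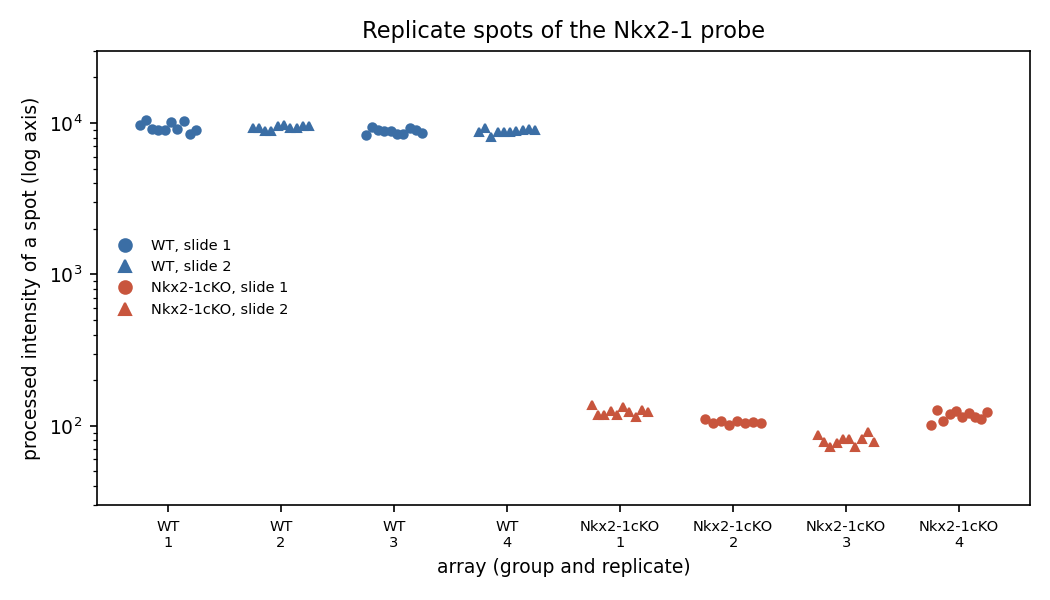
Processed intensity (log axis) of each copy of the Nkx2-1 probe that was kept, for the 8 arrays, with slides marked by symbol. The copies on the WT arrays lie near 10 to the power 4, with array means of 8811 to 9439, and those on the mutant arrays near 10 to the power 2, with array means of 80.1 to 123.8.

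Nkx2-2, which specifies the most ventral neuronal progenitors of the neural tube and takes part in oligodendrocyte differentiation, gave a dim signal close to the detection limit. Its log2 signal was -5.20, -5.52, -5.32 and -5.59 in WT and -6.27, -5.85, -5.97 and -7.18 in the Nkx2-1cKO. It was well above background on 4 WT and 3 mutant arrays, the exception being Nkx2-1cKO replicate 4. No mutant array reached a WT array. An exact permutation test, two-sided, gave p = 0.0286, its smallest possible value with 4 arrays a group, and over all tested probes 4.11% separated in this direction. The difference of -0.91 (standard error 0.33, 95% interval -1.65 to -0.17) missed the threshold (limma, adjusted p = 0.447, adjusted over all probes). It was -1.26 on slide 1 and -0.57 on slide 2. The sign depended on the processing, since normexp, with its offset, turned the difference to 0.50.

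Nkx2-3, known from gut mesenchyme, spleen and pharyngeal tissue, was the member with the most consistent difference after Nkx2-1. Its log2 signal was -0.79, -0.43, -0.71 and -0.62 in WT and 0.33, -0.23, 0.52 and -0.10 in the Nkx2-1cKO. All mutant arrays were above all WT arrays, a separation that 2.29% of all tested probes shared, and the exact permutation p was again 0.0286. The mean went from -0.64 ± 0.16 to 0.13 ± 0.36 (SD, n = 4 each). The difference of 0.77 (standard error 0.17) equals 1.70-fold, with a 95% interval of 1.31 to 2.22-fold, and it lay just outside the threshold (limma, adjusted p = 0.0865).

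The call on Nkx2-3 depended on the slide. The probe was brighter on slide 2 by 0.41 (standard error 0.10, adjusted p = 0.0295, limma), a difference that 14.2% of all tested probes also passed in one direction or the other. Within slides the mutant was above WT by 0.59 on slide 1 and by 0.95 on slide 2. With slide as a block the difference stayed 0.77, its standard error was 0.10, and Nkx2-3 passed as higher (limma, adjusted p = 0.00618), as did 0.668% of all tested probes in that fit. Without Nkx2-1cKO replicate 2, the lowest mutant array, the difference was 0.89 and also passed (limma, adjusted p = 0.0477).

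Nkx2-4, the closest relative of Nkx2-1 and best known from the hypothalamus, differed between slides and did not pass between groups. Its log2 signal was -3.99, -5.19, -4.68 and -5.16 in WT and -5.06, -4.37, -5.26 and -4.60 in the Nkx2-1cKO, and the groups overlapped. The difference of -0.07 (standard error 0.31, limma, adjusted p = 0.95) had a 95% interval of -0.77 to 0.63, and its standard error was 0.19 with slide as a block. All 4 arrays of slide 1, at -4.68 to -3.99, were above all 4 of slide 2, at -5.26 to -5.06, as were 12% of all tested probes. With genotype in the fit, slide 2 differed from slide 1 by -0.76 (standard error 0.19, adjusted p = 0.0328, limma).

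Nkx6-1 and Nkx6-2 belong to the NK6 class, which in the spinal cord acts in motor neuron progenitors, and Nkx6-2 is also a gene of myelinating oligodendrocytes. The Nkx6-1 signal was -3.08, -3.48, -3.77 and -3.59 in WT and -3.15, -3.33, -4.35 and -2.80 in the Nkx2-1cKO. The highest and the lowest of the 8 values were both mutant arrays. The log2 difference was 0.08 (standard error 0.31, 95% interval -0.61 to 0.76, limma, adjusted p = 0.943), with 0.36 on slide 1 and -0.21 on slide 2.

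The Nkx6-2 signal was -0.50, -0.52, -0.58 and -0.77 in WT and -0.30, -1.01, -0.39 and -0.41 in the Nkx2-1cKO. Of the mutant arrays, 3 were above every WT array, and replicate 2 was below every WT array. The log2 difference was 0.06 (standard error 0.16, 95% interval -0.29 to 0.41, limma, adjusted p = 0.903), with -0.17 on slide 1, which holds that array, and 0.30 on slide 2. The exact two-sided permutation test gave p = 0.914 for Nkx2-4, 0.857 for Nkx6-1 and 0.743 for Nkx6-2.

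**Figure D2:**
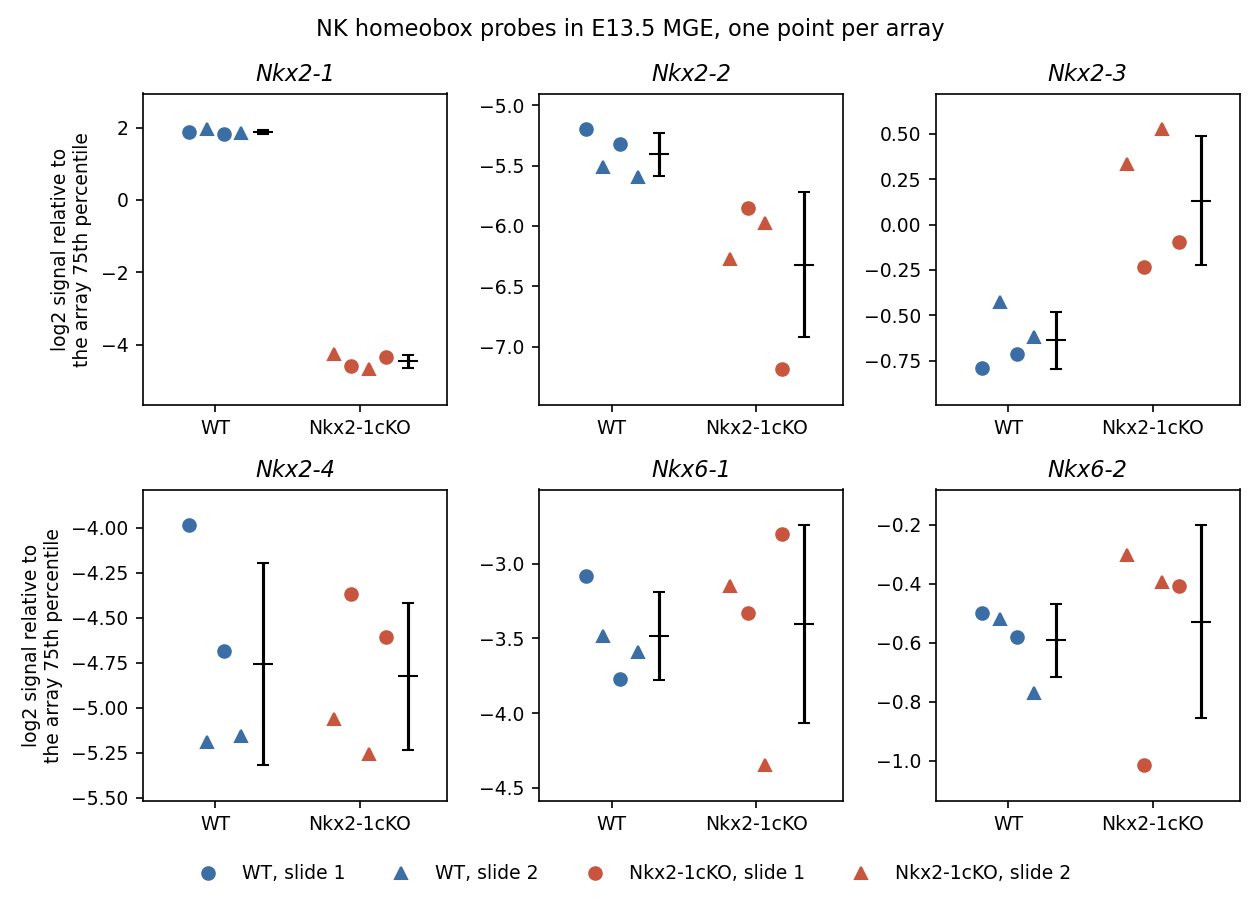
Log2 signal relative to the array's 75th percentile for the 6 members, one point per array, each panel with its own scale; bars show the mean and SD of 4 arrays, and symbols mark the slide. Nkx2-1 lies near 1.87 in WT and -4.46 in the mutant, Nkx2-2 and Nkx2-3 separate by group within smaller ranges, and the Nkx2-4 arrays separate by slide.

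The members were recomputed under each alternative. Nkx2-3 stayed above WT under all 17 alternatives, by 0.64 to 0.90, with adjusted p (limma) between 0.00618 and 0.43. Nkx2-1 stayed below WT by 5.01 or more on the log2 scale and passed under all 17. The sign changed for Nkx2-2 after normexp and for Nkx2-4 after quantile normalization, centring on the median and normexp, while for Nkx6-1 and Nkx6-2 it changed only where a single array was left out. The median over all tested probes was itself -0.04 as reported, 0.01 after quantile normalization, 0.09 after centring on the median and 0.20 after normexp.

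**Figure D3:**
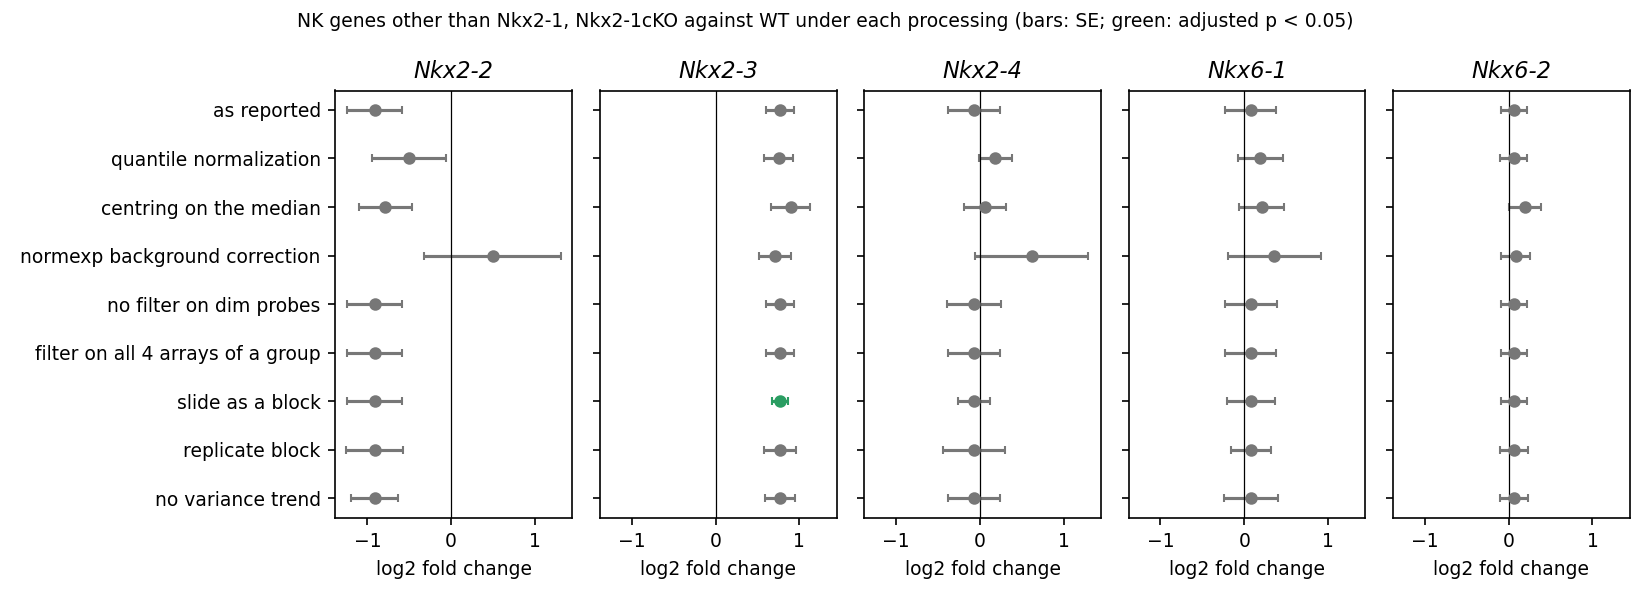
Log2 fold change of the 5 members other than Nkx2-1 (Nkx2-1cKO against WT) under each way of processing, with standard errors as bars and adjusted p under 0.05 in green; leaving out single arrays is not drawn. Nkx2-3 is to the right of 0 in every setting and passes with slide as a block, while Nkx2-2 moves from -0.91 to 0.50 with normexp background correction.

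Of 10 further NK homeobox genes, 5 had a tested probe (Hmx1, Hmx2, Hmx3, Nkx2-5 and Nkx2-6), and 0 passed in either direction (limma, 0 also at an unadjusted p under 0.05, and 0 with slide as a block). Their median difference was -0.11, against -0.04 for all tested probes. Hmx3 and its relative Hmx2, which act in the inner ear and hypothalamus, had the widest spread. Hmx3 was at -3.88, -6.76, -7.26 and -3.15 in WT and at -2.46, -3.11, -3.23 and -5.06 in the Nkx2-1cKO. The difference of 1.80 had a standard error of 0.93 (limma, adjusted p = 0.625), and the groups overlapped. Hmx2 differed by 1.00 (standard error 0.88, adjusted p = 0.714, limma) and Hmx1 by -0.46 (standard error 0.43, adjusted p = 0.727, limma).

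The SHH pathway and the progenitor genes that NK factors act with were examined as a list of 24 dorsoventral patterning genes, 20 of them tested. Of these, 3 fell, 5 rose and 12 did not pass, with a median difference of 0.14 against -0.04 for all tested probes. Of all tested probes, 0.614% passed as lower and 0.422% as higher. Foxa2, Irx3, Irx5 and Pax7, markers of floor plate or of more caudal or dorsal neural tissue, were not well above background on any array.

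Shh encodes the ligand, which in the MGE comes from postmitotic neurons. It was at -1.36, -1.87, -2.13 and -1.56 in WT and at -3.22, -3.19, -3.66 and -3.69 in the Nkx2-1cKO. All mutant arrays were lower, and WT was 3.27-fold higher on average. The log2 difference was -1.71 (standard error 0.19, limma, adjusted p = 0.0025). After normexp the difference was -1.03 and did not pass (limma, adjusted p = 0.628).

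Among molecules that bind SHH, Hhip, a membrane-bound antagonist that the pathway itself induces, was lower by -1.59 (standard error 0.24, adjusted p = 0.0115, limma), and its second probe was lower by -1.68. The brighter probe did not pass after normexp, at -0.44 (limma, adjusted p = 0.849), or without WT replicate 4 (limma, adjusted p = 0.0525). The co-receptors Boc and Gas1 rose. Boc was higher by 0.77 (standard error 0.13, adjusted p = 0.0212, limma) and Gas1 also by 0.77 (standard error 0.14, adjusted p = 0.0394, limma). Gas1 lay close to the threshold and passed without a given array in 2 of 8 cases, and Boc in 5 of 8. The third co-receptor, Cdon, differed by 0.34 (standard error 0.32, adjusted p = 0.731, limma).

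The pathway's readouts Gli1 and Ptch1 did not pass. Gli1, a transcriptional target and activator, differed by -0.27 (standard error 0.18, adjusted p = 0.664, limma), with an interval of -0.68 to 0.14. The receptor gene Ptch1, also a target, differed by -0.12 (standard error 0.31, adjusted p = 0.906, limma), and both changed sign after normexp. Gli2, the main activator of the GLI group, rose by 0.91 on its brighter probe (standard error 0.13, adjusted p = 0.0089, limma), but its dimmer probe differed by -0.20 (standard error 0.27, adjusted p = 0.804, limma), so the probes disagree. Gli3, whose processed form is a repressor, differed by 0.42 (standard error 0.19, adjusted p = 0.594, limma).

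Among the transcription factors of the list, Dbx1 had the largest rise. Dbx1 marks progenitors of the preoptic area and of the border between pallium and subpallium. It was at -2.16, -3.28, -3.43 and -2.47 in WT and at -0.16, -0.58, -0.34 and -1.23 in the Nkx2-1cKO, which makes the mutant 4.77-fold higher (log2 difference 2.26, standard error 0.31, limma, adjusted p = 0.0078). Six3, a factor of the anterior forebrain that is also used in striatal neurons, rose by 0.99 (standard error 0.12, adjusted p = 0.0034, limma).

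Olig1 and Olig2 are neighbouring genes of ventral progenitors and the oligodendrocyte lineage, and of them Olig1 fell while Olig2 did not pass. Olig1 was at -0.64, -0.23, -0.32 and -0.29 in WT and at -2.24, -2.14, -1.89 and -1.74 in the Nkx2-1cKO. It was lower by -1.63 (standard error 0.14, adjusted p = 0.00037, limma). Olig2, the gene whose regulatory sequence drives the Cre, was at 1.07, 0.80, 0.79 and 0.80 in WT and at 1.02, 0.92, 0.96 and 1.16 in the Nkx2-1cKO, with a difference of 0.15 (95% interval -0.06 to 0.36, limma, adjusted p = 0.658). For Olig1 and Olig2 too, the Cre allele and the loss of Nkx2-1 cannot be told apart. Gsx2, which gives progenitors of the lateral ganglionic eminence (LGE) their identity, differed by 0.42 (standard error 0.15, adjusted p = 0.41, limma).

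**Figure D4:**
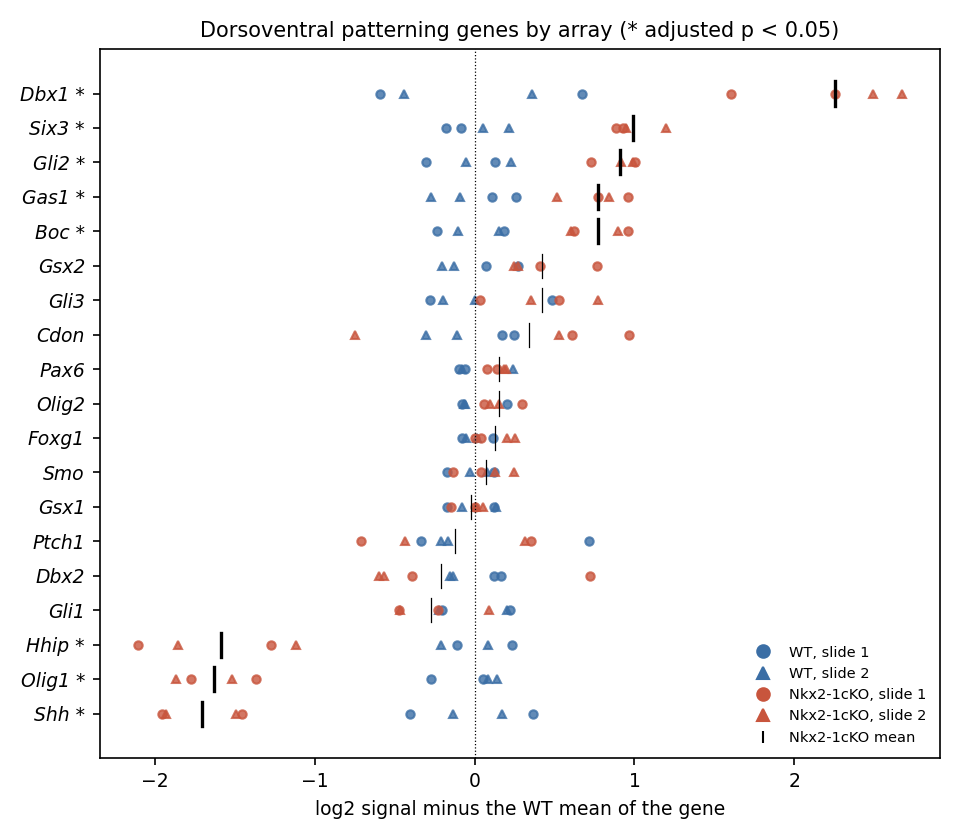
Log2 signal minus the WT mean of the gene for tested dorsoventral patterning genes, on the brightest probe of each; points are arrays, symbols mark slides, vertical strokes are mutant means, and an asterisk marks adjusted p under 0.05. Dbx1, Six3, Gli2, Gas1 and Boc lie to the right and Hhip, Olig1 and Shh to the left, with all mutant arrays of these 8 genes beyond all WT arrays.

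Groucho/TLE proteins are the co-repressors that NK factors recruit. Of 8 genes of this list, including histone deacetylases that work with them, 7 were tested. Among these, 1 rose, 1 fell and 5 did not pass, with a median difference of -0.01. The shares of all tested probes were 0.422% higher and 0.614% lower. Tle4 rose by 0.52 (standard error 0.09, adjusted p = 0.0234, limma), with WT at 3.93 to 4.18 and the mutant at 4.40 to 4.69. Its call was lost under 9 of 17 alternatives, among them median centring, normexp and no variance trend, and it passed in 3 of 8 cases with a single array left out. Tle6, a divergent member of the family, fell by 1.27 (standard error 0.13, limma, adjusted p = 0.0016), with WT at -2.03 to -1.49 and the mutant at -3.16 to -2.93. After normexp the difference was -0.70 and did not pass (limma, adjusted p = 0.849). Tle2 differed by -0.74 (standard error 0.23, adjusted p = 0.334, limma) and Tle1 by 0.29 (standard error 0.11, adjusted p = 0.443, limma).

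The members lie partly beside one another, Nkx2-1 next to Nkx2-9 and Nkx2-2 next to Nkx2-4 in the RefSeq gene order. Of 30 other protein-coding genes within 3 places of a member, 23 were tested, of which 1 fell and 0 rose (limma, 2 at an unadjusted p under 0.05). The shares of all tested probes were 0.614% lower and 0.422% higher. At an unadjusted p under 0.05 (limma) they were 5.29% lower and 3.31% higher. The one that fell was Kiz, a centrosomal gene near Nkx2-4 and Nkx2-2, which was lower by -0.75 (standard error 0.08, adjusted p = 0.0016, limma), with WT at 1.59 to 1.74 and the mutant at 0.80 to 0.99. After centring on the median the difference was -0.62 and did not pass (limma, adjusted p = 0.111). Xrn2, which lies between Kiz and Nkx2-4, differed by -0.25 (standard error 0.12, adjusted p = 0.602, limma). Mbip, directly beside Nkx2-1, was higher on all 4 mutant arrays, by 0.49 (standard error 0.14), without passing (limma, adjusted p = 0.244). Such a separation was shared by 2.29% of all tested probes. The 22 tested neighbours other than Kiz lay between -0.97 and 0.49.

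The genes whose signal followed Nkx2-1 most closely were Lhx6, Lhx8 and Gpr17. Likeness was the root mean square difference over the 8 arrays, after each gene's own mean was subtracted, among 14419 genes. It was 1.08 for Lhx6, 1.34 for Lhx8 and 1.39 for Gpr17, on the log2 scale. A measure of this kind picks genes that are much lower in the mutant, so their own difference is given as a description. Lhx6 was at 3.16 to 3.31 in WT and at -1.32 to -0.69 in the mutant. Lhx8 was at 3.63 to 3.99 in WT and at -0.10 to 0.68 in the mutant. Both encode LIM homeodomain factors of MGE-derived neurons, and Gpr17 is a receptor of oligodendrocyte precursors.

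Markers of the MGE were present in both groups, with all 10 of the list tested, 3 of them lower (Nkx2-1, Lhx6 and Lhx8) and 0 higher. With slide as a block 4 were lower, the added one being Dlx1, at -0.39 (limma, adjusted p = 0.0231 with the block and 0.0832 without it). In that fit 265 of all 31283 tested probes passed as lower, against 192 in the fit without slide. The summed signal of the 10 markers, relative to the 75th percentile, was 84.7 to 86.5 in WT and 53.7 to 56.8 in the mutant. Sums of this kind, here and below, weigh the brightest probes most, so they do not measure how much of a tissue was present. Of 9 markers of the LGE and caudal ganglionic eminence, 3 were higher (Ebf1, Isl1 and Meis2) and 0 lower. Of 5 tested markers of oligodendrocyte precursors, 3 were lower (Olig1, Pdgfra and Gpr17), with a median difference over the 5 of -1.63. The sums of the 5 were 3.67 to 4.29 in WT and 2.57 to 3.03 in the mutant. They include Olig2, which did not pass. Nkx2-2 and Nkx6-2 can also be expressed in oligodendrocyte precursors. The part of these cells in the Nkx2-2 values was not tested. Of all tested probes, 0.614% passed as lower and 0.422% as higher in the fit without slide.

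Tissues beside the MGE that express NK genes gave the following values. The shares of all tested probes were 0.614% lower and 0.422% higher. At an unadjusted p under 0.05 (limma) they were 5.29% lower and 3.31% higher. Of 4 tested preoptic markers (Dbx1, Dbx2, Hmx2 and Hmx3) 1 was higher, Dbx1. The list's sum was 0.157 to 0.421 in WT and 0.548 to 1.21 in the mutant. This sum includes Dbx1 itself, so it is no separate measure of preoptic tissue. Of 4 tested hypothalamic markers, 0 passed (limma, also 0 at an unadjusted p under 0.05), and Otp and Six6 were not well above background on any array. Of 3 tested floor plate and midbrain markers 1 was lower, Shh, which is also expressed in the MGE and so is no measure of these tissues. Foxa2 and En1 were not well above background on any array. The list's sum, which includes Shh itself, was 0.263 to 0.530 in WT and 0.106 to 0.146 in the mutant. Among 7 mesenchymal markers, a cell type in which Nkx2-3 is known, 0 passed (limma, 1 lower at an unadjusted p under 0.05), and the sum was 1.44 to 7.64 in WT and 1.45 to 2.06 in the mutant. The part of dissected neighbouring tissue in the values of Nkx2-3 and Dbx1 was not tested.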

How the data were processed

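MGE RNA of 4 WT and 4 Nkx2-1cKO samples at E13.5 was measured on 1-colour Agilent arrays. The authors deposited the intensity of each spot after Agilent Feature Extraction (background subtracted and detrended within the array, not scaled between arrays), with other values per spot, the flags for spots well above background, saturated or outlying. The labels give version 10.1 of that software and the file headers version 10.7.3.1, with the design mapped to mm9. Further processing by the authors is not given in the sources used here.

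After removal of control spots and of spots marked as outliers, log2 intensities were set against each array's 75th percentile and averaged per probe. Of 41174 probes, 24844 matched 17178 symbols by accession in a RefSeq table (GRCm38.p6). A probe was retained if it was well above background on 4 or more of the 8 arrays, which kept 31283. These were compared with limma 3.58.1 (lmFit, eBayes with trend; R 4.3.3), with Benjamini-Hochberg adjustment over all probes and a threshold of 0.05. A gene is represented by its brightest tested probe. The method was tested on simulated data. Alternatives were quantile normalization, median centring, normexp (offset 50, on the median signal in place of the mean signal, which was not used here), no filter or a stricter one on dim probes, slide or replicate number as a block, no trend, averaging all probes of a gene, and each array left out.

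The members and the gene lists were chosen with earlier results of these data known. Named by rule are all members, list genes past the threshold, the 3 largest values of the rest, neighbours, and the 3 genes most like a member past the threshold. Gli1, Ptch1, Olig2, Cdon and the other genes without a call that lie outside it were named after their values were seen. Same-numbered arrays of both groups did not vary together (correlations of -0.48 to -0.19 between their deviations from the group means). All same-numbered arrays lay on different slides, while arrays of both groups on the same slide correlated at -0.016 to 0.57. The check therefore cannot tell whether the numbers pair samples. The number of arrays limits the precision. Some genes of the lists are counted but not reported here by name.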

Additional observations from a re-analysis of the deposited data

Results flagged for a closer look

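In 54 groups of 4 arrays (27 named genes in WT and in the Nkx2-1cKO), 2 had a single array far from the other 3 by Dixon's criterion, which chance alone meets in about 1 group in 20. Nkx6-2 on Nkx2-1cKO replicate 2 was at -1.01, against -0.41 to -0.30 on the other mutant arrays. Ptch1 on WT replicate 1 was at -3.19, against -4.24 to -4.07 on the other WT arrays; this is the array with the highest median over all probes.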

How the results depend on the processing

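Under 17 alternatives, 1 member, Nkx2-1, was lower in every case. The count of members higher was 0, except 1 (Nkx2-3) with slide as a block and 1 without Nkx2-1cKO replicate 2, a range of 0 to 1 over left-out arrays. Of the patterning genes, lower calls numbered 1 after normexp and 2 to 3 with single arrays left out, and higher calls 0 with the replicate block, 3 without the variance trend and 3 to 5 with single arrays left out (3 without WT replicate 2, Nkx2-1cKO replicate 3 or Nkx2-1cKO replicate 4). Over all probes, lower calls were 115 after median centring, 92 after normexp, 65 with the replicate block and 131 to 174 with single arrays left out; higher calls were 63 after normexp, 209 with slide as a block, 8 with the replicate block and 64 to 120 with single arrays left out.

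The difference changed sign for Nkx2-2 after normexp (0.50), for Nkx2-4 after quantile normalization (0.19), median centring (0.060) and normexp (0.62), for Gli1 after normexp (0.29), and for Ptch1 after quantile normalization (0.0082), median centring (0.0089) and normexp (0.49). With single arrays left out it ran from -0.22 to 0.19 for Nkx2-4, from -0.13 to 0.39 for Nkx6-1, from -0.013 to 0.22 for Nkx6-2 and from -0.28 to 0.12 for Ptch1. The mean of both Gli2 probes was 0.35 (limma, adjusted p = 0.613). With the replicate block the adjusted p (limma) was 0.0653 for Dbx1, 0.0594 for Tle6, 0.13 for Tle4 and 0.0789 for Kiz. The causes were not tested. Nkx2-2 was well above background on 7 of 8 arrays, as was Hmx3.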
